A study of Rattus norvegicus with 14 samples.

Results

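Metabotropic glutamate receptors are G protein-coupled receptors for glutamate, and Homer proteins are scaffolds that tie some of them to calcium stores and to the postsynaptic density. Transcripts of 9 such genes were followed, 6 receptor genes (Grm2, Grm3, Grm4, Grm5, Grm7 and Grm8) and 3 Homer genes (Homer1, Homer2 and Homer3), chosen by symbol from a fixed list. All 9 were listed among 18239 genes for hippocampal neurons and among 31791 for hippocampal astrocytes. Receptor genes outside this list are not described here.

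Both kinds of culture came from embryonic day 18 rats. All cultures were kept in AM medium, the supplement-reduced condition used as the aging model, and no group without AM is among these libraries. AM differed between the cell types. For neurons it was Neurobasal with a reduced supplement, and for astrocytes a DMEM-based medium with charcoal-stripped serum. Neurons, on day 10 in culture, were in AM for 4 h and then received vehicle (AM-Veh, 0.001% ethanol) or 100 nM allopregnanolone (AM-Allo) for 16 h, with 4 libraries in each group. Astrocytes were in AM for 24 h and then received vehicle or 100 nM allopregnanolone for 24 h, with 3 libraries in each group. Allopregnanolone (Allo) is a neurosteroid made from progesterone that prolongs the opening of GABA-A receptors. The RNA is that of whole cultures grown from embryos, which limits both groups as models of aged brain cells.

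By coupling, the receptors form groups. Group I receptors, here Grm5, act through Gq and phospholipase C to release calcium from internal stores, and their long tails bind Homer. Group II receptors, Grm2 and Grm3, and group III receptors, Grm4, Grm7 and Grm8, act through Gi/o to lower cAMP and often restrain transmitter release. Grm5 is also a known receptor of young astrocytes, and Grm3 of mature ones. Homer1 gives rise to long scaffold forms and to a short form induced by activity, and the deposited table sums them under a single symbol, so the forms could not be separated.

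The cultures were mixed. In CPM, the normalized counts of a gene per 1000000 of its library, astrocyte markers summed to 6391 to 8935 in neuron libraries and to 8606 to 9080 in astrocyte libraries, with Gfap at 3091 to 5319 and 5478 to 5884. Neuron markers summed to 2312 to 2752 and 1111 to 1180, and in astrocyte libraries 4 of the 9 listed, Rbfox3, Nefl, Nefm and Gad2, averaged under 10 normalized counts. Most of the sum in astrocyte libraries was Stmn2 alone, with means of 913 CPM in AM-Veh and 910 in AM-Allo, while Map2 was at 137 to 171. Oligodendrocyte lineage markers reached 2743 CPM in neuron libraries, and mesenchymal markers 3009 in astrocyte libraries. A level below is therefore that of a culture, and fewer cells of a type and less RNA per cell cannot be told apart. Estimated reads on genes ran from 19500000 to 25200000 per neuron library and from 22200000 to 28100000 per astrocyte library, and 1 read was worth about 0.855 to 1.144 normalized counts.

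Levels in the 2 cultures are given as CPM with no test, because the tables were normalized separately. Medium and hours of treatment also differed between the cultures, and cannot be told apart from cell type in a difference of level. Grm5, the group I receptor, was well above 0 in both, at 76.3 ± 5.77 CPM (SD, n = 8) in neuron libraries and 33.3 ± 1.80 (SD, n = 6) in astrocyte libraries, a ratio of 2.30. The lowest neuron library, at 66.3, stood above the highest astrocyte library, at 36.9.

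The group II receptor Grm2, found mainly on axons, was at 8.66 ± 1.21 CPM (SD, n = 8) in neuron libraries and 1.22 ± 0.229 (SD, n = 6) in astrocyte libraries. Grm3, which responds to N-acetylaspartylglutamate (NAAG) as well as to glutamate, was at 23.98 ± 3.73 (SD, n = 8) and 0.364 ± 0.170 (SD, n = 6). Although Grm3 is known from astrocytes of the brain, these astrocyte cultures held 2.00 to 13.98 normalized counts of it per library, while neuron cultures held 391 to 651.

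Grm4 and Grm7, group III receptors of presynaptic terminals, were the most divided between the cultures. Grm4 was at 5.99 ± 1.86 CPM (SD, n = 8) in neuron libraries and was listed at 0 in all 6 astrocyte libraries. Grm7 was at 13.97 ± 1.72 CPM (SD, n = 8) in neuron libraries and was listed at 0 in 4 of 6 astrocyte libraries, with 2.13 and 1.04 normalized counts in the other two, worth about 2 reads and 1 read. Grm8, also of group III, was low in both cultures. Its range of 0.587 to 1.51 CPM in neuron libraries overlapped that of 0.553 to 1.23 in astrocyte libraries, the only overlap among the 9 genes.

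The Homer genes did not share a pattern. Homer1 was at 33.4 ± 1.77 CPM (SD, n = 8) in neuron libraries and 9.69 ± 0.959 (SD, n = 6) in astrocyte libraries, a ratio of 3.45. Homer2 was at 25.7 ± 1.22 (SD, n = 8) and 7.39 ± 0.671 (SD, n = 6), a ratio of 3.48. Homer3 was the only one of the 9 genes with the higher level in astrocyte cultures, at 66.9 ± 3.04 CPM (SD, n = 6) against 48.6 ± 4.01 (SD, n = 8), and its lowest astrocyte library, at 61.9, stood above its highest neuron library, at 55.4.

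**Figure D1:**
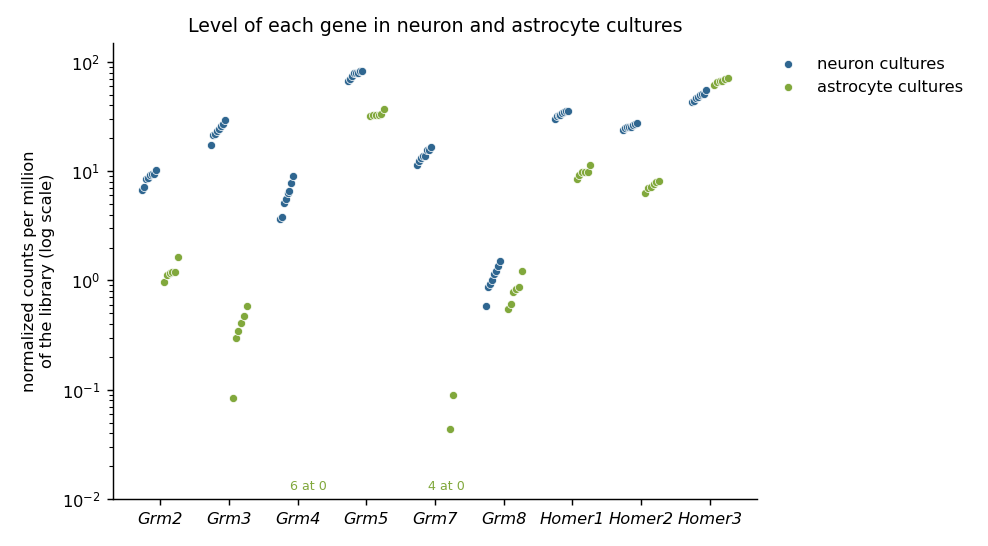
Level of each of the 9 genes in CPM (normalized counts per 1000000 of the library, log axis), with 1 point per library, for 8 neuron and 6 astrocyte libraries, and the number of libraries listed at 0 written at the foot. Grm4 was at 0 in all 6 astrocyte libraries and Grm7 in 4 of them, Grm8 overlapped between the cultures, and Homer3 alone was higher in astrocyte libraries; levels of different genes are not to be compared, since transcript length is not accounted for.

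The study asked how Allo acts on cells in AM, and the comparison within each culture was that of AM-Allo against AM-Veh. In neurons all 9 genes could be tested, 3 being higher and 6 lower in AM-Allo, with a median log2 fold change of -0.053 beside -0.0015 over all 15314 genes tested. At an unadjusted p under 0.05 by limma, 1 of 9 differed, Grm5, where 5.69% of all genes did. After Benjamini-Hochberg adjustment over all genes none of the 9 passed by limma, where 0.0261% of all genes did. Grm5 was also the only one of the 9 whose groups did not overlap, where 3.95% of all genes had none.

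Grm5 was higher in AM-Allo neurons, by a small amount. In the AM-Veh libraries 1-1, 1-2, 2-1 and 2-2 it had 1624, 1737, 1559.7 and 1481 normalized counts. In the AM-Allo libraries of the same numbers it had 1819, 1803, 1740.5 and 1759.6. The lowest AM-Allo library thus stood just above the highest AM-Veh library, 1-2, and the AM-Allo libraries lay closer together. The means were 1601 ± 108 (SD, n = 4) and 1781 ± 36.6 (SD, n = 4), a log2 fold change of 0.16 (SE 0.048, 95% confidence interval 0.049 to 0.26). By limma the unadjusted p was 0.00834 and the adjusted p 0.651, and the two-sided exact permutation test gave 0.0286, the lowest value open to groups of 4 and 4. The log2 fold change kept an unadjusted p under 0.05 in all 20 alternatives tried, limma's p ranging from 0.00026 to 0.025. The lowest came from the authors' variance-stabilized values fitted without a term for the library number, a fit that counts residual freedom already used. With that term the same values gave a limma p of 0.000539. The sums of neuron markers (2312 to 2585 CPM in AM-Veh, 2409 to 2752 in AM-Allo) and of astrocyte markers (6567 to 8935 and 6391 to 8619) overlapped between the groups. Both groups hold libraries whose number begins with 1 and with 2. Between these, the sums of astrocyte markers did not overlap (6391 to 7041 and 8136 to 8935 CPM). The overlap between treatment groups therefore cannot show whether composition was alike within a number. The part of cell composition in the Grm5 difference was not tested.

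Neuron libraries that share the first part of their number deviated together, so a block by that part was also fitted. It raised the count from 1 to 3 of 9 genes, Grm2, Grm3 and Grm5, at an unadjusted p under 0.05, where 11.0% of all genes passed the same limma fit. After adjustment none of the 9 passed this blocked limma fit, where 0.679% of all genes did. For Grm5 the blocked limma test gave an unadjusted p of 0.000595 and an adjusted p of 0.0706. The study, which tested with DESeq2, names Grm3, Grm4 and Grm5 as significantly changed in its synaptogenesis, long-term potentiation and CREB pathways. Genes entered its pathway analysis at a p-value cutoff of 0.05, with no adjustment stated. Those pathway lists were drawn from these same samples, so the mention is not independent evidence. Here Grm4 was not called in either fit, and Grm3 only in the blocked one.

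**Figure D2:**
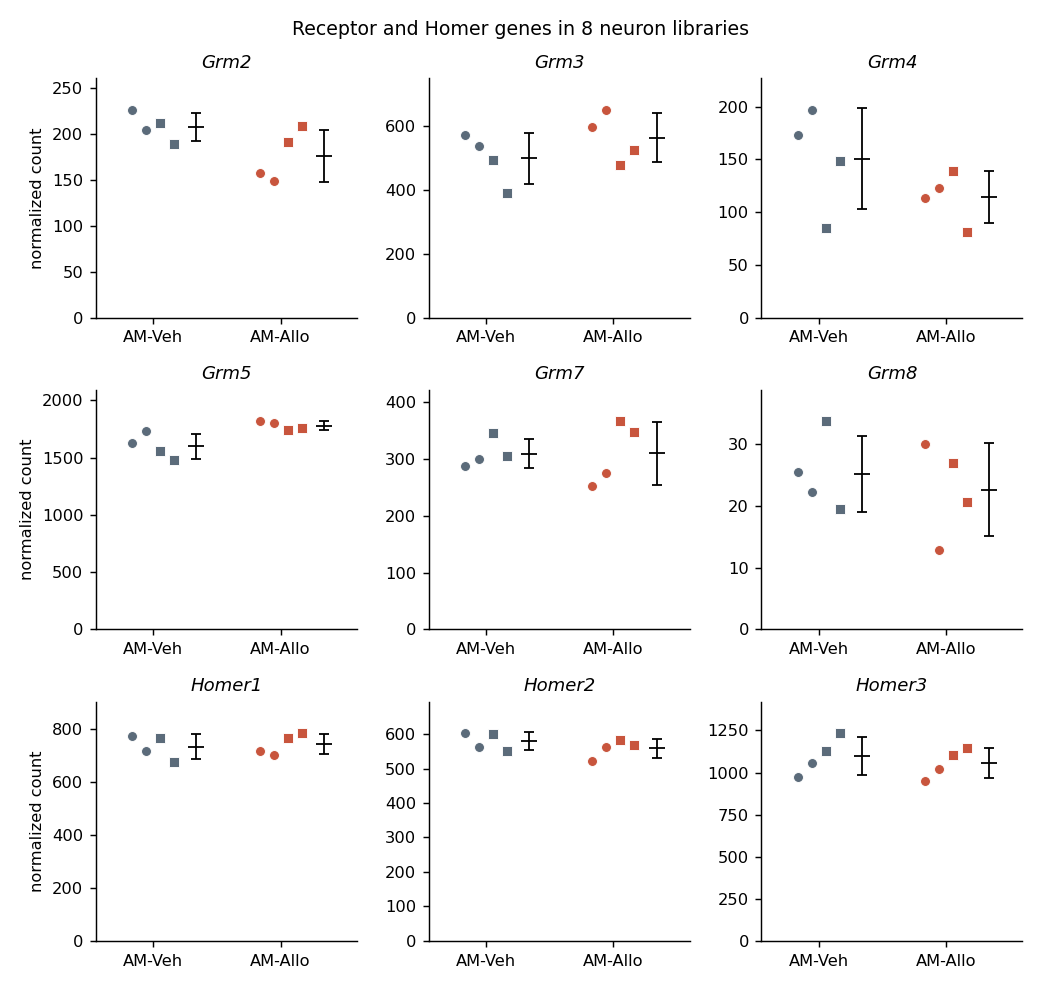
Normalized counts of the 9 genes in the 8 neuron libraries, 1 point per library, AM-Veh in grey and AM-Allo in red, circles for libraries whose number begins with 1 and squares for those that begin with 2, with the mean and SD (n = 4) beside each group. For Grm5 every AM-Allo library is above every AM-Veh library, while for Grm3, Grm7 and Homer3 circles and squares are set apart.

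The group II receptors were on opposite sides of 0. Grm2 had 226, 204, 211 and 189 normalized counts in AM-Veh libraries 1-1, 1-2, 2-1 and 2-2, and 158, 148, 190.4 and 209 in AM-Allo. Both AM-Allo libraries whose number begins with 1 were below all AM-Veh libraries, and the other two lay within the AM-Veh range. The log2 fold change was -0.25 (SE 0.12), with an unadjusted p of 0.0615 by limma, 0.0346 in the blocked fit, and 0.143 by the exact permutation test. With a library left out, the unblocked limma p ran from 0.0144 (without AM-Allo 2-2) to 0.174 (without AM-Allo 1-2), and was also under 0.05 without AM-Veh 2-2, at 0.0482. The blocked fit was not repeated with a library left out.

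Grm3 had 573, 539, 494 and 391 normalized counts in AM-Veh libraries 1-1, 1-2, 2-1 and 2-2, and 598, 651, 479 and 524 in AM-Allo. AM-Allo was the higher for 3 of the 4 numbers, the exception being 2-1, and the groups overlapped. The log2 fold change was 0.18 (SE 0.13), with an unadjusted p of 0.185 by limma and 0.0218 with the block. Without the block it was 0.066 when AM-Veh 2-2 was left out, with a limma p of 0.543, and 0.11 without AM-Allo 1-2.

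No group III receptor gene passed the test in neurons, with or without the block. Grm4 varied widely among AM-Veh libraries, with 173, 197, 85.1 and 148 normalized counts, beside 113, 123, 139 and 81.1 in AM-Allo. AM-Veh 2-1 was far below the other AM-Veh libraries and near the lowest AM-Allo library. The log2 fold change was -0.36 (95% confidence interval -0.91 to 0.19), with an unadjusted limma p of 0.177. Without AM-Veh 2-1 it was -0.61 with a p of 0.00821 by limma, while it was -0.21 both without AM-Veh 1-2 (limma p of 0.427) and without AM-Allo 2-2 (limma p of 0.424).

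Grm7, the group III receptor with low affinity for glutamate, had 288, 299.6, 345 and 304 normalized counts in AM-Veh and 252, 275, 366 and 347 in AM-Allo. The means were 309 ± 25.0 (SD, n = 4) and 309.9 ± 55.3 (SD, n = 4), with a 95% confidence interval of the log2 fold change from -0.28 to 0.25. AM-Allo was below AM-Veh for both numbers that begin with 1 and above it for both that begin with 2. Grm8 had 19.5 to 33.7 normalized counts in AM-Veh and 12.9 to 30.1 in AM-Allo, and on so few reads the interval was wide, from -0.81 to 0.44.

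The Homer genes differed between the neuron groups by less than the spread of their libraries. Homer1 had 777, 719, 767 and 676 normalized counts in AM-Veh libraries 1-1, 1-2, 2-1 and 2-2, and 720.4, 705, 767 and 788 in AM-Allo. The groups overlapped, and the log2 fold change was 0.020 (95% confidence interval -0.11 to 0.15). Homer2 had 604, 563, 600.2 and 551 in AM-Veh and 521, 562, 584 and 568 in AM-Allo, a log2 fold change of -0.053 (95% confidence interval -0.17 to 0.069). Homer3, the Homer most abundant in cerebellar Purkinje cells, had 975, 1058, 1125 and 1236 in AM-Veh and 947, 1023, 1105 and 1146 in AM-Allo. Each Homer3 value in AM-Allo was below that of the same number in AM-Veh, but the log2 fold change was -0.056 (SE 0.079), with an unadjusted limma p of 0.490 and 0.227 with the block.

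**Figure D3:**
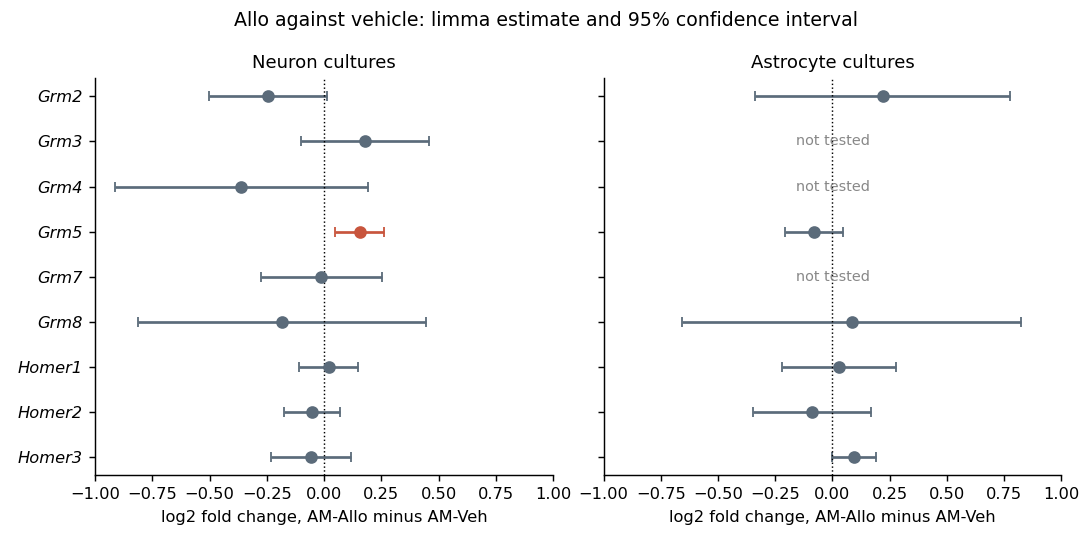
Log2 fold change of AM-Allo minus AM-Veh with its 95% confidence interval from limma, for 9 genes in neurons and 6 in astrocytes, red where the unadjusted p was under 0.05. The interval of Grm5 in neurons, 0.049 to 0.26, is the only one that leaves out 0; Grm3, Grm4 and Grm7 were too low in astrocytes to be tested.

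The neuron libraries were also compared by the first part of their number. What the number stands for is not given in the labels. With treatment as a term, 5 of 9 genes differed between first numbers at an unadjusted p under 0.05 by limma, where 29.3% of all genes did, and 3 of 9 after adjustment, where 17.2% did. The same 3, Grm3, Grm7 and Homer3, had no overlap between first numbers, where 19.6% of all genes had none.

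Grm3 averaged 590 ± 47.4 (SD, n = 4) normalized counts in libraries beginning with 1 and 472 ± 57.4 (SD, n = 4) in those beginning with 2, a log2 difference of -0.33 (limma adjusted p = 0.00391). Grm7 went the other way, from 279 ± 20.6 (SD, n = 4) to 341 ± 26.1 (SD, n = 4), a log2 difference of 0.29 (limma adjusted p = 0.0187). Homer3 averaged 1001 ± 49.7 (SD, n = 4) and 1153 ± 57.7 (SD, n = 4), a log2 difference of 0.20 (limma adjusted p = 0.00490). Grm4 (log2 difference -0.43, with an unadjusted limma p of 0.0404) and Grm5 (-0.097, with a p of 0.0164) passed only before adjustment. The sum of astrocyte markers moved with the first number too. It was 6391 to 7041 CPM in libraries beginning with 1 and 8136 to 8935 in those beginning with 2. Oligodendrocyte lineage markers stood at 2567 to 2743 and 2351 to 2451, while neuron markers overlapped (2406 to 2585 and 2312 to 2752). The low lists did not overlap either, with mesenchymal markers at 44.8 to 116 and 28.0 to 34.8 CPM, microglia markers at 4.88 to 5.64 and 7.47 to 8.21, and endothelial markers at 1.74 to 2.28 and 2.75 to 4.92. In the astrocyte list Gfap, the most abundant, ran from 3091 to 5319 CPM over all neuron libraries, and Aqp4 from 1057 to 1275. Single markers were not compared between first numbers. Whether the sums follow numbers of cells, and the part of other cells in the differences of Grm3, Grm7 and Homer3, were not tested.

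Within each first number, Grm5 was higher in AM-Allo, by 0.11 and 0.20 on the log2 scale. Grm3 differed by 0.17 and 0.19, the latter a mean of opposite pairs, since 2-1 went from 494 to 479 normalized counts and 2-2 from 391 to 524. For Grm2 the difference was -0.49 in libraries beginning with 1 and -0.0030 in those beginning with 2. The interaction for Grm2 was 0.48 (SE 0.17), with an unadjusted limma p of 0.0135 and an adjusted p of 0.375. It was the only one of the 9 interactions at an unadjusted p under 0.05, where 9.53% of all genes passed.

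**Figure D4:**
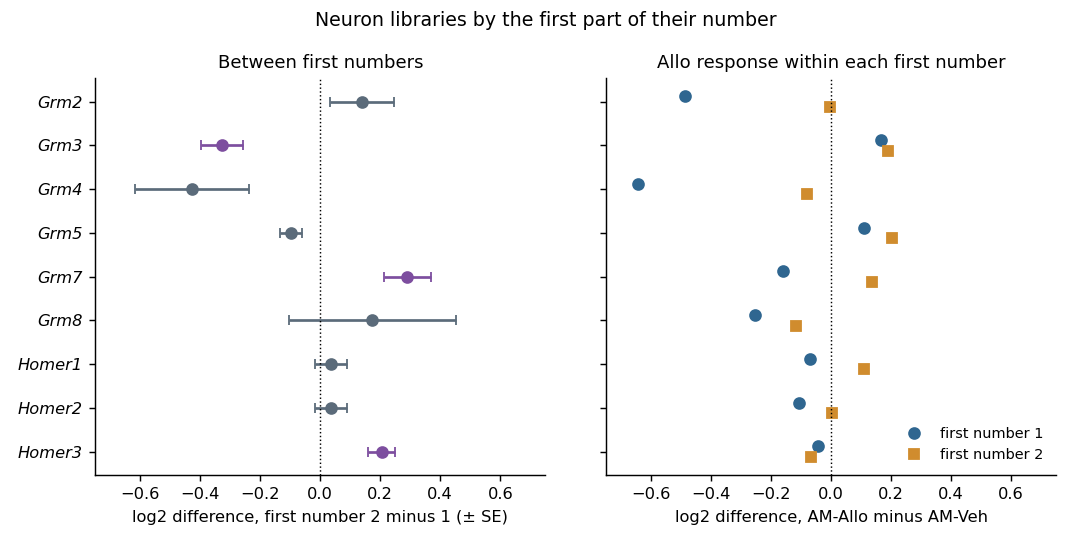
Left, log2 difference between neuron libraries whose number begins with 2 and with 1 (limma estimate ± SE, purple where the adjusted p was under 0.05); right, log2 difference of AM-Allo minus AM-Veh within each first number, from 2 libraries against 2. Grm3, Grm7 and Homer3 differ between first numbers, and the responses of Grm2 lie at -0.49 and -0.0030.

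In astrocytes 6 of the 9 genes could be tested, and none differed between AM-Allo and AM-Veh at an unadjusted p under 0.05 by limma, where 7.01% of all 15380 genes did, or after adjustment, where 0.00650% did. Of the 6 genes 4 were higher and 2 lower in AM-Allo, with a median log2 fold change of 0.055 beside 0.0014 over all genes tested. Homer3 alone had no overlap between the groups, where 12.5% of all genes had none.

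Homer3 had 1557, 1485 and 1594 normalized counts in AM-Veh libraries 1, 2 and 3, and 1684, 1649 and 1613 in AM-Allo. The gap between the highest AM-Veh and the lowest AM-Allo library was small beside the range within each group. The means were 1545 ± 55.7 (SD, n = 3) and 1649 ± 35.9 (SD, n = 3), a log2 fold change of 0.094 (SE 0.044, 95% confidence interval -0.0018 to 0.19). By limma the unadjusted p was 0.0538 and the adjusted p 0.721, and the exact permutation test gave 0.1, the lowest value open to groups of 3 and 3. With a library left out the limma p ran from 0.0396 (without AM-Veh 3) to 0.214 (without AM-Veh 2, log2 fold change 0.065), and was also under 0.05 without AM-Allo 3, at 0.0433.

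Grm5 in astrocytes lay on the other side of 0 from Grm5 in neurons. It had 876, 794 and 778 normalized counts in AM-Veh and 762, 772 and 782 in AM-Allo, so that the groups overlapped and 1 AM-Veh library was above the rest. The log2 fold change was -0.079 (95% confidence interval -0.21 to 0.048), with an unadjusted limma p of 0.203. Without AM-Veh 1 it was -0.027 with a limma p of 0.666, and the difference between the cultures was not tested. Homer1 had 217, 272 and 202 in AM-Veh and 232, 233 and 234 in AM-Allo, with nearly equal means of 230.3 and 233. Homer2 had 188, 184 and 172 in AM-Veh and 151, 195 and 168 in AM-Allo, and its log2 fold change of -0.089 had an interval from -0.35 to 0.17. The 2 low receptors that were tested, Grm2 at 23.0 to 39.6 normalized counts and Grm8 at 13.2 to 29.5, had intervals from -0.34 to 0.78 and from -0.66 to 0.82. Both were highest in AM-Allo 3. Grm3 had 8.16, 11.4 and 2.00 normalized counts in AM-Veh and 9.63, 7.08 and 13.98 in AM-Allo, under the minimum mean of 10 for a test.

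**Figure D5:**
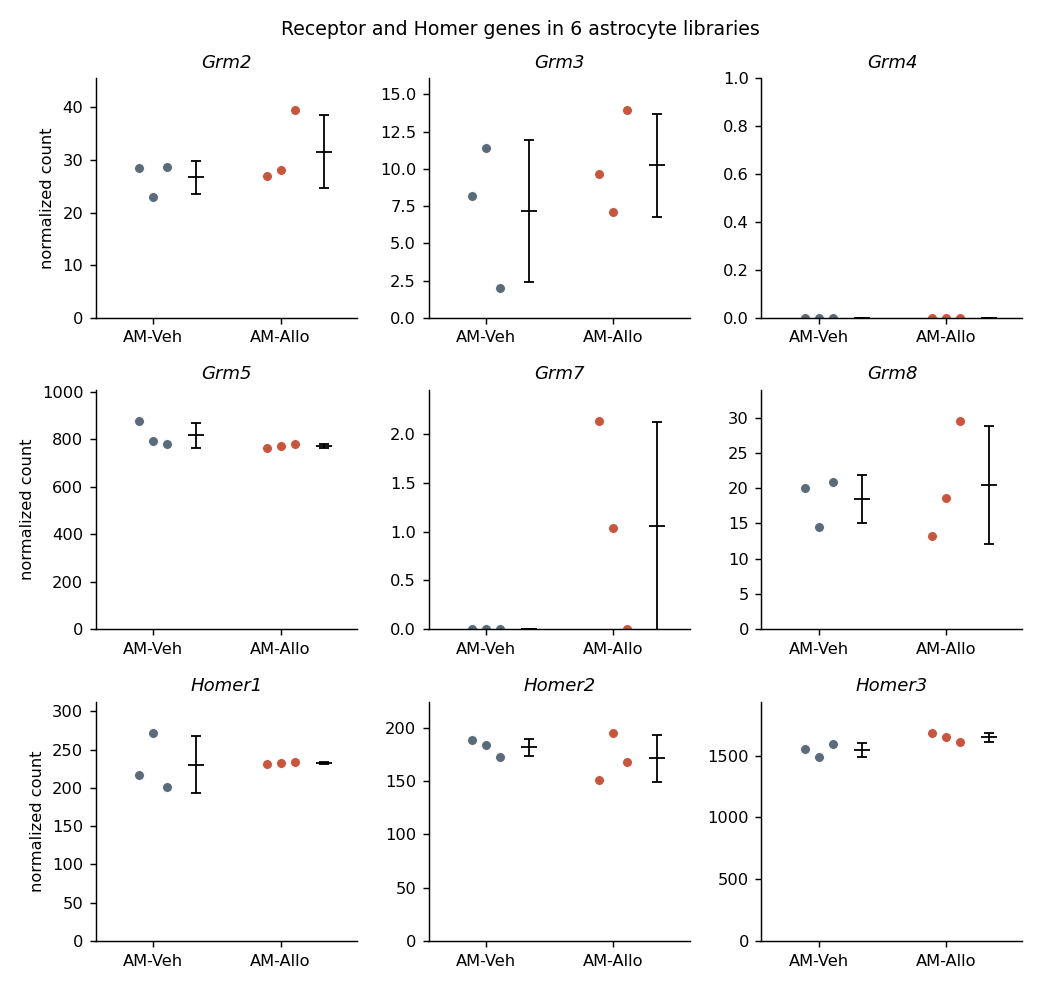
Normalized counts of the 9 genes in the 6 astrocyte libraries, 1 point per library, AM-Veh in grey and AM-Allo in red, with the mean and SD (n = 3) beside each group. Homer3 is the only tested gene whose groups do not overlap, and Grm3, Grm4 and Grm7 stay near 0.

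The genes around these receptors were read from 7 lists of 97 genes in all, of which 93 could be tested in neurons. In neurons 8 were higher and 8 lower in AM-Allo at an unadjusted p under 0.05 by limma, where 3.21% of all genes were higher and 2.48% lower, and the median log2 fold change over the 93 was 0.0020. A block by first number gave 16 higher and 13 lower, where 11.0% of all genes were called in either direction, and 3 of these 29 after adjustment, where 0.679% were. Called genes named below beyond the rule, Adcy5, Ncdn, Egr1, Egr3 and Bdnf, were chosen after their values were seen.

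By limma in neurons, 3.21% of all genes were higher and 2.48% lower at an unadjusted p under 0.05. On the group I side, 1 of 14 genes of Gq coupling and calcium release was higher and none lower. It was Itpr2, an inositol trisphosphate receptor of the endoplasmic reticulum, at 1855 ± 23.97 (SD, n = 4) normalized counts with vehicle and 1976 ± 45.3 (SD, n = 4) with Allo, with an unadjusted p of 0.0151 and an adjusted p of 0.712. Of 15 Homer-bound scaffolds and channels 2 were higher and none lower. They were Ryr3, a ryanodine receptor (log2 fold change 0.20, with an unadjusted limma p of 0.0428), and Agap2, a GTPase-activating protein (0.10, with a p of 0.0420), and neither passed adjustment. The Shank genes, which link Homer to the postsynaptic density, did not pass.

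On the group II and III side, 2 of 14 genes of Gi/o coupling were higher and 1 lower in neurons. Of all genes, 3.21% were higher and 2.48% lower by limma. Kcnj9, a subunit of the potassium channels that Gi/o-coupled receptors open, was at 285 ± 26.1 (SD, n = 4) normalized counts with vehicle and 236 ± 14.6 (SD, n = 4) with Allo. Its log2 fold change was -0.27, with an unadjusted p of 0.00860 by limma. Adcy1, an adenylyl cyclase stimulated by calcium, had a log2 fold change of 0.23, with an unadjusted p of 0.0309 by limma, and Adcy5, another cyclase, one of 0.11 with a p of 0.0467. The adjusted p of Kcnj9 was 0.652 and that of Adcy1 0.796 by limma.

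Of 15 tested genes of receptor-binding and trafficking proteins 1 was higher and 2 lower, where 3.21% and 2.48% of all genes were. The higher one was Ncdn, neurochondrin, a binding partner of Grm5, with a log2 fold change of 0.17 (limma adjusted p = 0.652). Rgs4 and Rgs2, which speed the end of G protein signaling and act on Gq, were the 2 lower ones. Rgs4 fell, from 1524 ± 129 (SD, n = 4) to 859 ± 115 (SD, n = 4) normalized counts, the only gene of the 7 lists to pass adjustment without the block (limma adjusted p = 0.0235). Rgs2 was at 502 ± 24.3 (SD, n = 4) and 401 ± 23.3 (SD, n = 4), a log2 fold change of -0.32 with a limma adjusted p of 0.240, and of 0.0233 with the block.

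Of all genes 5.69% were called in neurons by limma at an unadjusted p under 0.05. Among 10 tested genes of glutamate and NAAG supply, Slc17a7, the vesicular glutamate transporter VGLUT1, was the only one called, at 1969 ± 216 (SD, n = 4) and 2403 ± 195 (SD, n = 4) normalized counts. Its log2 fold change was 0.29, with an unadjusted p of 0.00419 and an adjusted p of 0.589 by limma. Among 13 genes of receptor-dependent depression and translation, Cyfip2, a partner of the fragile X protein and of the WAVE complex, was the only one called, with a log2 fold change of 0.11 (limma adjusted p = 0.442, and 0.0276 with the block).

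The activity-regulated genes had the median furthest from 0 of the 7 lists. Of 12 tested, 1 was higher and 11 were lower in AM-Allo neurons, where 49.2% of all genes tested were higher. At an unadjusted p under 0.05 by limma 5 were lower, where 2.48% of all genes were. With the block 0 were higher and 8 lower, where 11.0% of all genes were called in either direction. None of the 12 passed adjustment in either fit, and their median log2 fold change was -0.29. The list was chosen with earlier results of these data known. Egr4, a zinc finger transcription factor, was at 29.2 ± 1.86 (SD, n = 4) and 14.2 ± 8.10 (SD, n = 4) normalized counts, and Fosb, a Fos family factor, was at 17.1 ± 3.93 (SD, n = 4) and 9.01 ± 3.57 (SD, n = 4). The other called genes were Egr1 (log2 fold change -0.42), Egr3 (-0.40) and Bdnf (-0.28), and Egr2 was the exception to the direction (0.31, not past the test). Homer1, whose short form is activity-regulated, had a log2 fold change of 0.020 for its summed forms.

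In astrocytes 81 of the 97 genes could be tested, and 4 were lower and none higher at an unadjusted p under 0.05 by limma, where 3.29% of all genes were lower and 3.72% higher. They were Arrb1, an arrestin of receptor internalization (log2 fold change -0.14, with an unadjusted limma p of 0.0139), Slc1a2, the glutamate transporter GLT-1 (-0.36, with a p of 0.0211), Folh1, the enzyme that splits NAAG (-0.13, with a p of 0.0291), and Cyfip2 (-0.19, with a p of 0.0259). None passed adjustment by limma. Cyfip2, higher in AM-Allo neurons, was thus lower in AM-Allo astrocytes, and the difference between the cultures was not tested. In the other 4 lists no gene was called without a block, and their most abundant genes were Prkca, Dlg4, Gnai2 and Junb, with log2 fold changes of -0.072, 0.042, 0.0055 and 0.20.

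Over the 8 neuron libraries, the log2 values most like those of Grm5 were those of Srgap3, a GTPase-activating protein of Rac (Pearson r = 0.970), Cdca2, a chromatin-bound regulator of protein phosphatase 1 (0.965), and Afap1l1, an actin-associated protein (0.959). These 3 were the highest of all genes tested, and the libraries share treatment groups and first numbers, so the correlations are given as a description.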

How the data were processed

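RNA-seq values were used from 8 neuron and 6 astrocyte libraries, grouped by the cell type and treatment in their labels, with 0 columns left unused. The labels do not say that replicates were separate cultures, so p-values measure only the spread between these samples. The authors made stranded poly(A)-selected libraries from RNA with a quality score above 7, mapped reads to rat transcripts with Salmon 0.14, used tximport for a count per gene and DESeq2 1.18.1 for normalization. The authors deposited this normalized signal per gene for each cell type, with symbols as names, and variance-stabilized (VST) values on a log2-like scale. Values were not whole multiples of a read throughout: 63.7% to 93.4% of the low values of a library were whole within 0.15 of a read. Depth was estimated from the step between low values, and covers counting error only.

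The log2 of each normalized count plus 1 was used, so fold changes of low genes are understated. Genes with a mean of at least 10 were tested within each cell type with limma 3.58.1 (lmFit, eBayes with a trend) in R 4.3.3, two-sided, with Benjamini-Hochberg adjustment over all genes tested. Mean log2 values of the 9 genes were also compared by exact permutation, two-sided. The test was tried on simulated data with larger changes than those of the 9 genes and no difference between first numbers. That trial does not show how the test behaves for changes as small as these. The members and lists were chosen with earlier results of these data known. All 9 genes are named, with up to 2 called genes of each list by size of change (else its most abundant gene) and the 3 genes most like Grm5.

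After group means were removed, AM-Veh and AM-Allo neuron libraries of the same number correlated over genes at 0.296, 0.229, 0.265 and 0.273. Those that share only the first part of the number correlated at 0.185 to 0.236, and those that differ in it at -0.15 to -0.32. The libraries were therefore taken to go together by the first part of the number. Deviations within a group sum to 0, so values of opposite sign are partly built in. In the neuron VST table, the means of the libraries beginning with 1 and with 2 were equal for all 18239 genes, within 1e-07, which held for 0 genes in log2 normalized counts. The difference between first numbers is therefore absent from that table, and its VST fit without a block counts residual freedom that was already used. Alternatives were other pseudocounts, filters, scalings, VST values, eBayes options, blocks and each library left out. VST values with a block were added after the data were seen.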

Additional observations from a re-analysis of the deposited data

Results flagged for a closer look

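The response of Grm2 in neuron libraries whose number begins with 2 minus that in libraries beginning with 1 was 0.48 on the log2 scale (SE 0.17), with an unadjusted interaction p of 0.0135 by limma. It did not pass adjustment (limma adjusted p = 0.375). It was 1 of 9 genes at an unadjusted p under 0.05, where 9.53% of all genes were, and without AM-Veh 1-1 the count was 0. In libraries beginning with 1, AM-Veh had 226 and 204 normalized counts and AM-Allo 158 and 148. In those beginning with 2, AM-Veh had 211 and 189 and AM-Allo 190.4 and 209. Each response rests on 2 libraries against 2. What differs between the first numbers is not given in the labels, and its part in the response was not tested.

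Cyfip2 was higher in every AM-Allo neuron library than in every AM-Veh one (log2 fold change 0.11) and lower in every AM-Allo astrocyte library (-0.19). Groups did not overlap for 3.95% of all genes in neurons and 12.5% in astrocytes. The limma adjusted p of Cyfip2 was 0.442 in neurons (0.0276 with the block) and 0.665 in astrocytes. It was found by searching the named genes for groups set apart in opposite directions. The difference between the cultures was not tested, since their tables were normalized separately.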

How the results depend on the processing

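Over the alternatives tried for the genes that could be tested, 249 fold changes kept their direction and side of an unadjusted p of 0.05 by limma, 13 came under it and 11 changed sign. In neurons 3 of the 9 genes passed with the block by whole number, by first number, with VST values, and with VST values and the block, and 1 to 2 with a library left out. For the genes of the 7 lists these counts were 28, 29, 30 and 29, beside 16 without, and 12 to 20 with a library left out. For all genes they were 1634, 1684, 2204 and 1694, beside 872, and 678 to 966. Interactions at an unadjusted p under 0.05 numbered 2 under quantile normalization, beside 1 (0 to 3 with a library left out, 0 without AM-Veh 1-1, 2 without AM-Veh 1-2 or AM-Allo 1-2, 3 without AM-Veh 2-1). The count of genes that differed between first numbers, 5, was 3 to 5 with a library left out (3 without AM-Veh 1-2), and 0 with VST values, from which that difference is absent by construction. In astrocytes 0 to 1 of the genes passed with a library left out, 3 to 6 of the list genes (7 with no trend, beside 4) and 782 to 1279 of all genes, and the block by number, whose same-numbered libraries correlated at -0.0070 to 0.024, gave 0, 5 and 1102. It changed no call of the 6 genes, while Junb of the activity-regulated list had a limma p of 0.00176 with it and 0.0631 without. Signs turned only for fold changes far from the threshold, each with a library left out. In neurons Grm7 ran from -0.098 to 0.082 over all alternatives (0.042 without AM-Veh 2-1, 0.082 without AM-Allo 1-1, 0.040 without AM-Allo 1-2), Grm8 from -0.34 to 0.049 (without AM-Allo 1-2), Homer1 from -0.019 (AM-Veh 2-2 left out; -0.0068 with AM-Allo 2-2 left out) to 0.048, and Homer3 from -0.11 to 0.0021 (AM-Veh 2-2 left out). In astrocytes Homer1 ran from -0.062 (AM-Veh 3 left out; -0.0082 with AM-Veh 1 left out) to 0.15, and Grm8 from -0.21 (AM-Allo 3 left out; -0.071 with AM-Veh 2 left out) to 0.35. The cause of these turns was not tested.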
